A study of Mus musculus with 4 samples.

Results

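The Notch genes described here are the receptors Notch1, Notch2 and Notch3, the ligands Jag1, Jag2 and Dll1, and the target genes Hes1, Hey1, Heyl and Nrarp. They were taken as every gene probe on the array that carried one of these 10 names, which gave 15 probes of 41174 on the array and 10 genes of 28095 gene names. Expression was measured in whole back skin of mice aged 10 days, in 2 Adam17flox/flox animals with the Krt14-Cre transgene (called cKO, for conditional knockout) and 2 Krt14-Cre negative littermates as controls. Each of 2 litters gave 1 cKO and 1 control animal, on a mixed 129Sv and C57BL/6 background. Krt14-Cre is driven by the keratin 14 promoter, which is active in basal epidermis and in outer cells of the hair follicle, and the deletion passes on to the cells that descend from them. Loss of ADAM17 in each cell type was not measured. The labels do not state how many floxed alleles the control animals carried, and since they lacked Cre, an effect of Cre itself and the loss of ADAM17 cannot be told apart.

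Notch receptors are cut by proteases once a ligand on a neighbouring cell binds them. The first cut at the cell surface is made chiefly by ADAM10 and in some settings by ADAM17, and the gamma-secretase complex then frees the intracellular part, which joins the DNA-binding protein RBPJ and turns on targets such as the Hes and Hey repressors. In skin the pathway is known for driving basal keratinocytes into differentiation, for shaping the hair follicle and for maintaining vascular smooth muscle. Jag1 and Jag2 are the Jagged ligands, and Dll1 is a Delta-type ligand that metalloproteases can also cut.

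Each array probe is a 60-base DNA strand that reads 1 stretch of a transcript. For Notch2, Jag1 and Heyl, several probes read different stretches of the same gene, and the results turn on whether they gave the same answer. The first 30 bases of each of these 7 probes are shown 5′ to 3′, as the files give them, in the order in which they lie along the transcript:
Notch2 A_51_P216397: cccagagtctcctgaccaatggtcaagctc
Notch2 A_52_P448796: tctgtggtaatctaggatgatagttttctc
Notch2 A_52_P289213: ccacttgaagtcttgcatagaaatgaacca
Jag1 A_51_P280906: acgagaacaaaaactccaaaatgtcaaaaa
Jag1 A_52_P634090: ggagtattctcataagctagttgaatactt
Heyl A_51_P339417: actgcagaacagtctcttgacactatgggg
Heyl A_52_P337259: aatcattttcttcaaggtctttgcccttct
In mm9, the Notch2 probes lie on the plus strand of chromosome 3 at 97951205 to 97951264, 97952843 to 97952902 and 97953914 to 97953973. The Jag1 probes lie on the minus strand of chromosome 2 at 136908942 to 136909001 and 136907433 to 136907492. The Heyl probes lie on the plus strand of chromosome 4 at 122925488 to 122925547 and 122926975 to 122927034. Exon and UTR annotation of this build was not used here. Between 1011 and 1578 bases separate neighbouring probes of these genes, so each reads its own stretch. Over their 60 bases, the 3 Notch2 probes held 53.3%, 40.0% and 41.7% G and C.

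The 4 arrays lay on 1 slide with 1 scan time, and on each of them 53.7% to 56.6% of the gene spots stood well above background. Values are log2 signals relative to the 75th percentile of each array, and differences are cKO minus control. Since probes differ in how strongly they bind, levels are compared between arrays for 1 probe and not between probes. Adam17, which Cre deletes, had signals of -0.14 and -0.13 in cKO skin, against 0.44 and 0.37 in control skin, with its brighter probe. That difference of -0.54 ± 0.09 (SE) was not past the threshold (limma, adjusted p = 0.135 over all probes). Its second probe differed by -0.55 ± 0.09. Both cKO arrays lay below both controls at each probe. The labels do not state which stretch of the gene is deleted, so neither probe is known to read it. All 6 genes of a basal keratinocyte list and all 8 of a suprabasal list had a probe that passed the filter. So did all 6 each of the fat cell, skeletal muscle and T cell lists. Keratinocyte genes were thus detected beside those of other cells. By the brightest probe of each gene, the median differences were 0.17 (basal), 0.41 (suprabasal), 0.59 (fat cell), 0.32 (skeletal muscle) and -0.49 (T cell). They were -0.04 for hair cortex and matrix, -0.05 for inner root sheath, -0.15 for fibroblast and -0.36 for red cell lists. Of 7 inner root sheath genes, 5 were lower and 1 higher in both litters, against 32.0% and 40.5% of all genes. The part of cell numbers in the Notch differences was not tested.

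No Notch gene passed the test over all probes. All 15 probes passed the filter on dim signals, 14 of them well above background on every array, and 0 had an adjusted p under 0.05 in limma. Among all 22190 probes tested, 35 passed, which is 0.158%, with 6 higher (0.027%) and 29 lower (0.131%) in cKO skin. With litter as a replicate block in limma, 0 of all probes and 0 of the 15 passed, with 5139 of all probes at an unadjusted p under 0.05. Without that block, an unadjusted p under 0.05 was reached by 4 of the 15, against 15.4% of all probes (7.09% higher and 8.27% lower). Of those 4, 1 had cKO higher (Jag1) and 3 had cKO lower (both Heyl probes and 1 of Notch2). The cKO arrays did not overlap the controls at 9 of the 15 probes, against 48.4% of all probes. Of those 9, 5 were higher and 4 lower in cKO skin, against 25.8% and 22.6% of all probes. Between litters, 5 probes were higher in both, 5 lower in both and 5 had opposite signs, against 37.6%, 33.8% and 28.6% of all probes. By the brightest probe of each gene, the median difference was 0.04 over the 10 genes and 0.03 over all 15562 genes.

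**Figure D1:**
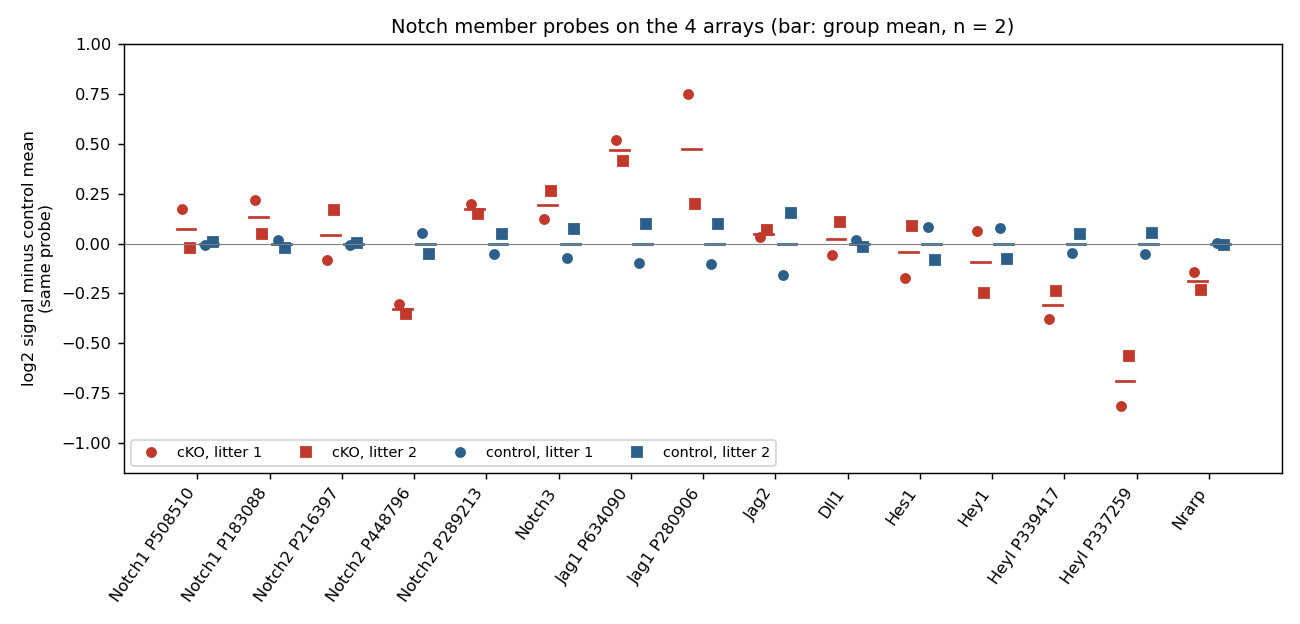
Signal of the 15 Notch probes on the 4 arrays, as log2 signal minus the control mean of the same probe. Red points are cKO and blue points control arrays, circles are litter 1 and squares litter 2, and bars are group means (n = 2). Both Heyl probes sit below the controls on both cKO arrays, both Jag1 probes sit above them, and the Notch2 probes go different ways.

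The target Heyl, a repressor of the Hairy/Enhancer-of-split-related family that is known from vascular smooth muscle, had the lowest difference of all the members. Its downstream probe read 1.67 and 1.92 in cKO skin, against 2.43 and 2.53 in control skin. Both cKO values lay below both control values, and the fitted signal was 1.61-fold lower in cKO skin. The difference was -0.69 ± 0.12 (SE), with -0.77 in litter 1 and -0.61 in litter 2, and its adjusted p was 0.145 (limma). The upstream probe, 1427 bases away, read -0.01 and 0.13 in cKO skin, against 0.33 and 0.42 in control skin. Again the groups did not overlap, but the difference was smaller, at -0.31 ± 0.10 (SE; limma, adjusted p = 0.286). Both stretches of the transcript were thus lower in both litters, and neither was past the threshold. In whole-skin RNA, fewer cells of a type and less RNA per cell cannot be told apart.

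Heyl was set beside markers of the blood vessel wall. Of 8 pericyte and vascular smooth muscle genes, 7 were tested. By the brightest probe, 4 of them were higher and 3 lower in both litters, with a median difference of 0.01. Their mean level was 2.20 and 2.22 on the cKO arrays, against 2.28 and 2.20 on the control arrays. Tagln, an actin-binding protein of smooth muscle, stood at -0.63 ± 0.13 and -0.99 ± 0.12 with its 2 probes, while Des (desmin) stood at 0.48 ± 0.17 and Pdgfrb, a pericyte receptor, at 0.01 ± 0.14. Myh11, a smooth muscle myosin, stood at -0.24 ± 0.30. Cspg4 and Rgs5 differed in sign between their tested probes. The brighter probe gave 0.03 ± 0.09 for Cspg4 and -0.10 ± 0.35 for Rgs5, and the other -0.06 ± 0.09 and 0.10 ± 0.14. Desmin is also a skeletal muscle gene, and of 6 skeletal muscle genes 3 were higher in both litters. These were Mb at 0.84 ± 0.11, Tnnt3 at 0.66 ± 0.13 with 1 of its probes and Acta1 at 0.44 ± 0.13. The other skeletal muscle genes went opposite ways in the litters, and the lowest difference was -0.19. By the brightest probes, the median of that list was 0.06 in litter 1 and 0.56 in litter 2. None of these markers was past the threshold in limma. Acta2 (smooth muscle actin) differed in sign between its probes, with 0.26 ± 0.11 for the brightest and -0.38 ± 0.15 for the next. Of 8 endothelial genes, 4 were lower and 1 was higher in each litter, and the median difference was -0.07. The endothelial receptors Tek, at -0.63 ± 0.14, and Kdr, at -0.45 ± 0.18, were the lowest of that list. By their brightest probes, Vwf stood at 0.12, Pecam1 and Tie1 at 0.03, Cdh5 at -0.07, Emcn at -0.08 and Cldn5 at -0.14. The mean endothelial level was -0.22 and -0.40 on the cKO arrays, against -0.04 and -0.28 on the controls. The part of these cells in the Heyl result was not tested.

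The other targets differed less. Nrarp, which limits Notch signalling by acting on the receptor's intracellular part, read 1.70 and 1.61 in cKO skin, against 1.85 and 1.84 in control skin. Both cKO values were the lower ones, and the difference was -0.19 ± 0.09 (SE; limma, adjusted p = 0.419). Hey1, a repressor related to Heyl, read 0.31 and -0.0028 in cKO skin, against 0.32 and 0.17 in control skin. Its groups overlapped, and it differed by -0.09 ± 0.14 (SE). Hes1, a target that holds progenitor cells back from differentiating in several tissues, read -0.77 and -0.52 in cKO skin, against -0.52 and -0.69 in control skin. It went opposite ways in the litters, with -0.25 in litter 1 and 0.17 in litter 2, and the 95% interval of its difference ran from -0.40 to 0.32. Of the 4 targets, 3 were lower in both litters by their brightest probe, against 32.0% of all genes.

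Jag1, the ligand known from the hair follicle and the suprabasal epidermis, had the highest difference among the members. Its downstream probe read 3.11 and 3.01 in cKO skin, against 2.50 and 2.69 in control skin. Both cKO values were above both controls, a 1.38-fold higher fitted signal. The difference was 0.47 ± 0.11 (SE), with 0.62 in litter 1 and 0.32 in litter 2 (limma, adjusted p = 0.208). The upstream probe, which was dim, read -3.38 and -3.93 in cKO skin, against -4.23 and -4.03 in control skin. It differed by 0.47 ± 0.21 (SE), unevenly, with 0.85 in litter 1 and 0.10 in litter 2 (limma, adjusted p = 0.397). The size of this dim probe's difference depended on the processing, at 0.98 with normexp, 0.17 once normexp left out spots dimmer than their surroundings, 0.20 without cKO replicate 1 and 0.75 without cKO replicate 2.

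The other ligands lay near 0. Jag2 read 1.19 and 1.22 in cKO skin, against 0.998 and 1.31 in control skin, so that both cKO values lay between the controls. Its difference was 0.05 ± 0.13 (SE), with a 95% interval from -0.31 to 0.41. Dll1 read -0.53 and -0.37 in cKO skin, against -0.46 and -0.49 in control skin, again with overlapping groups. The interval of its difference ran from -0.25 to 0.30. Equal levels of these ligands in cKO and control skin were not shown, since both intervals reach well to either side of 0.

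**Figure D2:**
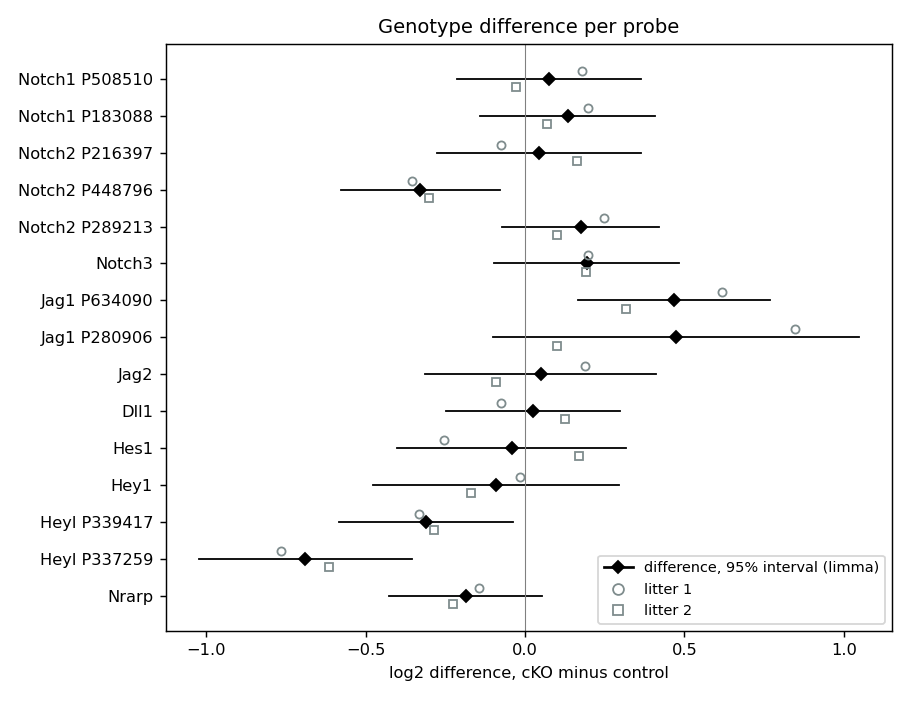
Log2 difference of cKO minus control skin for each Notch probe. Diamonds are the fitted differences, lines their 95% intervals from limma, circles litter 1 and squares litter 2. The intervals of both Heyl probes and 1 Notch2 probe lie below 0 and that of the downstream Jag1 probe above 0, none of them adjusted for the number of probes tested.

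The receptors showed small differences, and the probes of Notch2 went different ways. Its middle probe read -2.42 and -2.47 in cKO skin, against -2.06 and -2.16 in control skin. Its downstream probe read 2.07 and 2.02 in cKO skin, against 1.82 and 1.92 in control skin. The first was thus lower and the second higher on both cKO arrays, with no overlap at either. The fitted differences were -0.33 ± 0.09 (SE; limma, adjusted p = 0.245) and 0.17 ± 0.09 (SE; limma, adjusted p = 0.457). Taken within each array, the downstream probe minus the middle probe, relative to the control mean of that value, was 0.50 and 0.50 on the cKO arrays, against -0.10 and 0.10 on the control arrays. The 2 control values mirror each other because their own mean was subtracted. On average these values restate the 2 fitted differences and add no separate evidence. The upstream probe was near the limit of detection, not well above background in control replicate 2, and read -4.56 and -4.31 in cKO skin, against -4.49 and -4.48 in control skin. Since its probes disagree, no single direction for Notch2 can be given. With normexp background correction, the middle probe turned to 0.43 and the downstream probe to -0.061. That fit took in 3 spots of cKO replicate 2 that lay below their local background, and without them the values were -0.17 and 0.14.

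Notch1, the receptor known for restraining epidermal growth, was read by 2 probes on the minus strand of chromosome 2 (mm9) that overlap by 1 base, at 26314772 to 26314830 and at 26314830 to 26314889. The first read 1.15 and 0.96 in cKO skin, against 0.97 and 0.98 in control skin. The second read -0.21 and -0.38 in cKO skin, against -0.41 and -0.45 in control skin. They differed by 0.08 ± 0.11 and 0.13 ± 0.10 (SE), and only the second kept both cKO values above the controls. Notch3, a receptor known from pericytes and vascular smooth muscle, read 2.52 and 2.65 in cKO skin, against 2.32 and 2.46 in control skin. Both of its cKO values were higher, and the difference was 0.19 ± 0.11 (SE; limma, adjusted p = 0.475), with 0.20 in litter 1 and 0.19 in litter 2, and it kept its sign in normexp without those 3 spots, at 0.15, but not with them, at -0.069.

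The first Notch1 probe and the Dll1 probe were each printed at 10 spots per array, which gives the scatter within an array. For Notch1 the SD over the 10 spots was 0.06 on each cKO array and 0.08 and 0.09 on the control arrays. For Dll1 it was 0.06 and 0.04 on the cKO arrays and 0.07 and 0.06 on the controls. The Notch1 spots of cKO replicate 1 ran from 1.07 to 1.25, and those of the other cKO and the control arrays reached at most 1.06. Spot scatter leaves out labelling and hybridisation differences between arrays, so it does not show whether an animal stands apart. For Dll1 the spots of cKO replicate 2 ran from -0.44 to -0.32, and those of cKO replicate 1 from -0.62 to -0.42.

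**Figure D3:**
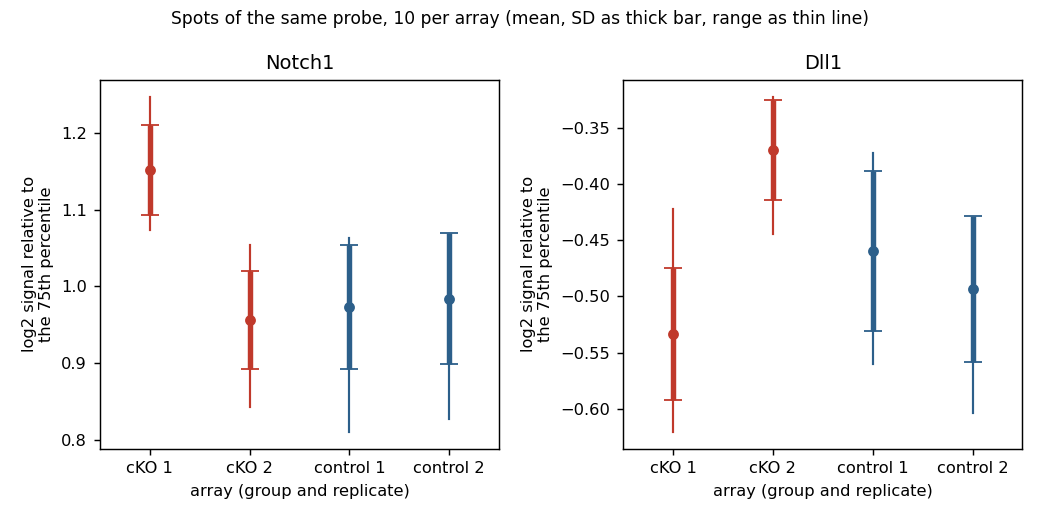
Log2 signal of the 10 spots of the first Notch1 probe and of the Dll1 probe on each array, relative to the array's 75th percentile. Points are means, thick bars the SD and thin lines the range over the spots. The Notch1 means are 1.15 and 0.96 on the cKO arrays (red), against 0.97 and 0.98 on the control arrays (blue).

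The genes whose pattern over the 4 arrays was most like that of the downstream Heyl probe were Smtn, Obfc2a and Tmem56. After each was centred on its own mean, their root mean square distances to it were 0.03, 0.04 and 0.04 on the log2 scale. Smtn encodes smoothelin, a protein of contractile smooth muscle, and read 2.22 and 2.42 in cKO skin, against 2.90 and 3.05 in control skin. For the upstream Jag1 probe, which had the highest difference by a small margin, they were Mrgprb2, Sypl2 and Serpina11, at distances of 0.03, 0.04 and 0.05. Mrgprb2, a receptor of connective tissue mast cells, read -3.08 and -3.60 in cKO skin, against -3.96 and -3.80 in control skin. With 4 arrays such likeness is a description of these arrays only.

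Beyond the 10 members, 54 other genes of the pathway were listed by role, of which 53 had a probe and 47 had one that passed the filter. None of these 47 was called, where 0.212% of all genes were. By unadjusted p under 0.05 in at least 1 probe, 6 stood higher and 2 lower in cKO skin, against 8.98% and 10.0% of all genes. Their median difference was 0.07, and 21 were higher and 10 lower in both litters, against 40.5% and 32.0% of all genes by the brightest probe.

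Of the genes for receptor cleavage, Adam10, the main protease for ligand-bound Notch, was well above background on only 2 of the 4 arrays and was not tested. It read -4.35 and -4.26 in cKO skin, against -4.01 and -4.41 in control skin, with overlapping groups. Of the 8 genes tested, 5 were higher and 1, Adam17, was lower in both litters. Psen2, a catalytic subunit of gamma-secretase, read 1.98 and 2.06 in cKO skin, against 1.71 and 1.76 in control skin, a difference of 0.29 ± 0.09 (SE; limma, adjusted p = 0.271).

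Among the genes for ubiquitylation and endocytosis, 12 of 12 were tested, with 4 higher and 2 lower in both litters. Numb, an adaptor that opposes Notch by routing the receptor away from the surface, was read by 2 probes, and at each the cKO arrays lay below the controls. The brighter one read -1.73 and -1.75 in cKO skin, against -1.33 and -1.28 in control skin, a difference of -0.43 ± 0.09 (SE; limma, adjusted p = 0.163). The other probe of Numb gave -0.49 ± 0.13. With normexp background correction, 1 of the 2 Numb probes turned sign, but not once spots below their local background were left out. Dtx2, a Deltex ubiquitin ligase that binds Notch, read 3.31 and 3.34 in cKO skin, against 3.02 and 2.94 in control skin, a difference of 0.35 ± 0.09 (SE; limma, adjusted p = 0.221).

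Of the other Hes and Hey genes, 4 of 6 were tested, with 3 higher and 1 lower in both litters. Hes6, which counteracts Hes1 in the nervous system of the mouse, read 1.84 and 1.86 in cKO skin, against 1.45 and 1.62 in control skin, and differed by 0.31 with each of its probes (SE 0.10 for both). Hey2, a repressor known from the developing heart and arteries, read -3.89 and -3.48 in cKO skin, against -4.17 and -4.54 in control skin. Its signal was well above background on 3 of the 4 arrays, and its difference of 0.68 ± 0.20 (SE; limma, adjusted p = 0.261) rests on a dim probe. Hes5, an effector of Notch in neural progenitors, was the lower one, at -0.14 ± 0.39. None of these genes was called, and no difference between them and Heyl or Hey1 was tested.

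Other receptors and ligands, glycosylation genes and the nuclear complex are each given by the 2 genes with the lowest p. Of 4 tested receptors and ligands, Notch4, an endothelial receptor, stood at -0.10 ± 0.09, and Dlk1, a non-canonical ligand, at 0.23 ± 0.20 and 0.30 ± 0.21 with its 2 probes. Among 5 glycosylation genes, the fringe enzymes Mfng and Rfng, which modify Notch receptors and so tune their response to ligands, stood at 0.26 ± 0.11 and 0.19 ± 0.12. Of 8 tested genes of the nuclear complex, Kat2b, an acetyltransferase, stood at -0.25 ± 0.10 and -0.47 ± 0.18 with its 2 tested probes. Maml2, a Mastermind coactivator, stood at -0.07 ± 0.11 and -0.38 ± 0.15. None of these genes had a probe past an unadjusted p of 0.05.

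Of 7 genes placed downstream of Notch in keratinocytes, 6 were tested, 3 of them higher and 2 lower in both litters. Krt1, an early keratin of the spinous layer, read 3.80 and 4.66 in cKO skin, against 2.43 and 2.55 in control skin. Its difference was 1.74 ± 0.30 (SE; limma, adjusted p = 0.142), and among the alternatives it passed only without cKO replicate 1, at 2.17 (limma, adjusted p = 0.0386). That fit holds 1 cKO array, which is assumed to vary like the controls. Its partner Krt10 read 7.97 and 8.20 in cKO skin, against 7.44 and 7.56 in control skin, a difference of 0.58 ± 0.12 (SE; limma, adjusted p = 0.176). Krt1, Krt10 and Ivl also belong to the suprabasal marker list, of which 5 genes were higher and 2 lower in both litters. The mean level of that list was 3.57 and 3.88 on the cKO arrays, against 3.13 and 3.19 on the controls, while that of the basal list was 5.79 and 5.75 on the cKO arrays, against 5.60 and 5.63 on the controls. The part of cell numbers in these differences was not tested.

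**Figure D4:**
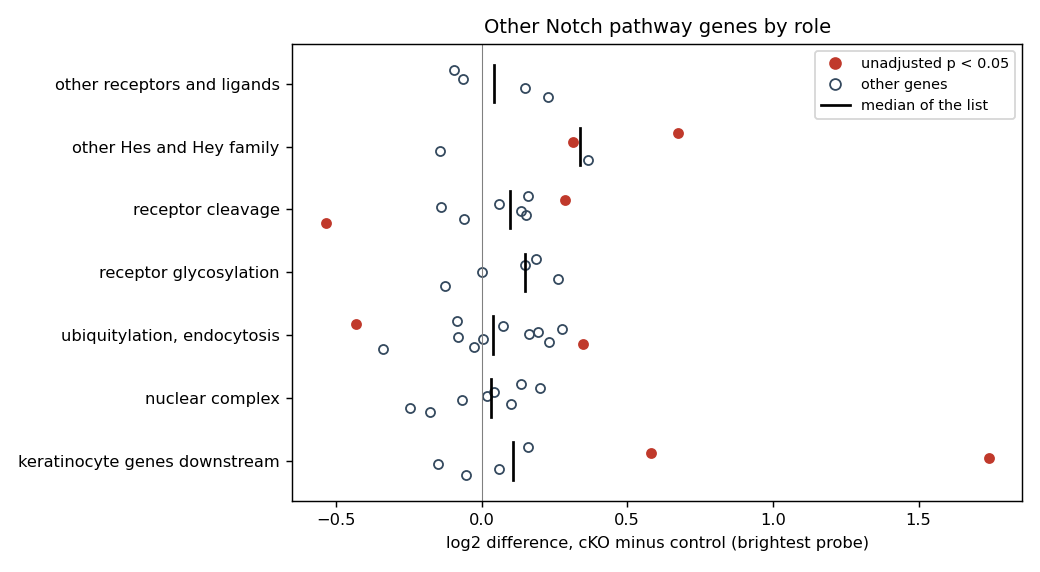
Log2 difference of cKO minus control skin for the other Notch pathway genes, by role and with the brightest probe of each gene. Filled points had an unadjusted p under 0.05, open points did not, and the bars are the list medians. Krt1 at 1.74 is the highest point and Adam17 at -0.54 the lowest.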

How the data were processed

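RNA of back skin from 2 cKO and 2 control mice was hybridised to 1-colour Agilent arrays (design 014868, mm9, per the file headers) after Cy3 labelling from 500 ng, per the labels' protocols. Feature Extraction 10.5 is named in the submitters' processing notes, whereas the file headers give 10.7.3.1. The authors' deposited intensity values were background-subtracted and detrended, per the file headers. The authors' series table holds deposited log2 values that equalled the log2 processed signal after the scaling used here, centred on each probe's median (correlation at least 0.99999). Its column medians were -0.06 and 0.08 for cKO replicates 1 and 2, and -0.08 and 0.06 for control replicates 1 and 2.

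Processed signals were put on the log2 scale and the 75th percentile of the array was subtracted. Control spots were dropped, as were 51 to 66 outlier spots on each array, and repeat spots were averaged. Probes entered the test if both arrays of at least 1 group called them well above background, which 22190 of 41174 met. Each probe was tested with limma 3.58.1 in R 4.3.3 (eBayes, two-sided, no covariate, Benjamini-Hochberg, threshold 0.05). The test was checked on simulated data. Genes were counted as called if any probe passed, and lists were summarised by the brightest probe. Litter pairs the animals per the labels, and deviations from the group means correlated at 0.37 across probes between littermates.

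The members and lists were chosen with earlier results of these data known. All members were named, with Adam17 and Adam10. Of each other list, genes past the threshold were named, or else the 2 with the lowest p, and for the highest and the lowest member difference the 3 most similar named genes. Hes5 and the vessel and muscle markers were picked with their values in view. With 2 arrays in each group, precision is limited by the number of arrays. Hdac1 was not analysed here.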

Additional observations from a re-analysis of the deposited data

How the results depend on the processing

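No Notch member passed the threshold in any of 11 alternatives. Of these, 1 was chosen after seeing the data, namely normexp without spots below their local background. Of 160 member values in the alternatives, 147 kept their sign and 13 turned. Litter as a block, no filter on dim probes, 1 probe per gene and the authors' series table leave a probe's difference the same or nearly so. Signs kept in those settings therefore say little. The downstream Heyl probe ranged from -0.86 to -0.56 (limma, adjusted p from 0.0686 to 0.718) the downstream Jag1 probe from 0.23 to 0.57 (adjusted p from 0.160 to 0.773) and the upstream Jag1 probe from 0.17 to 0.98 (adjusted p from 0.280 to 0.826). Over all probes, the count of 35 was 0 with normexp background correction (450 at an unadjusted p under 0.05), 0 without the filter on dim probes (2863), 0 with litter as a replicate block (5139, against 3409 without it), 53 with 1 probe per gene and 98 with normexp once spots dimmer than their local background were left out. Without 1 array in turn it ran from 0 (without either control replicate) to 50 (without cKO replicate 1). The count among other pathway genes ran from 0 to 1 in these, the 1 being Krt1 at 2.17 without cKO replicate 1. In these fits the lone array of a group is assumed to vary like the other group. With the replicate block, all calls over all probes were lost, and the members and other pathway genes had 0 calls, as without it. The causes of these changes in counts were not tested.

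With plain normexp, whose fit took in 3 spots on cKO replicate 2 that lay below their local background, these values turned sign: Notch1 to -0.031, Notch2 to 0.43 at the middle and -0.061 at the downstream probe, Notch3 to -0.069, Jag2 to -0.11, Hes1 to 0.0073, Notch4 to 0.14, Dlk1 to -0.027, Numb to 0.43, Maml2 to 0.35 and 0.45 and Kat2b to 0.23. Of Numb and Kat2b, only 1 probe each turned. Without those spots, in the setting chosen after seeing the data, none of the values turned. Leaving out 1 array in turn, the values that changed sign ran from -0.023 to 0.17 for Notch1, -0.17 to 0.087 for Hes1, -0.080 to 0.17 for the upstream Notch2 probe, -0.057 to 0.11 for Dll1, -0.25 to 0.063 for Hey1, -0.16 to 0.022 for Maml2, -0.11 to 0.20 for Jag2 and -0.017 to 0.48 for Dlk1. Slide as a block was not run, since all arrays lay on 1 slide.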
